A study of Rattus norvegicus with 4 samples.

Results

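The genes described here encode the enzymes and carriers that take up and oxidize fatty acids, 31 genes named by symbol out of 32883 genes listed. They comprise the fatty acid carriers Cd36 and Fabp3, the synthetases Acsl1, Acsl3, Acsl4, Acsl5 and Acsl6, the carnitine shuttle, the mitochondrial and peroxisomal oxidation enzymes, the electron-transferring flavoproteins and the regulator Ppara. RNA was sequenced from carotid bodies (CBs) of Sprague Dawley rats, in 2 libraries from neonates (day 5) and 2 from adults (day 21), to ask how expression in this organ differs between the ages. Glomus cells of the CB, a tiny paired organ beside the carotid artery in the neck, sense the oxygen of arterial blood. Each library was made from the pooled CBs of 6 pups or 3 adults according to the sample labels, and the animals were of both sexes, with no treatment and no genetic change named. Totals were 39476110 and 38506468 counts in neonate replicates 1 and 2, and 37778975 and 36286191 in adult replicates 1 and 2. At this depth, 3 counts in a library correspond to 0.0760 to 0.0827 counts per 1000000 (CPM).

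Fatty acids enter the cell with the help of membrane carriers and binding proteins, are activated to acyl-CoA by synthetases, and are carried into the mitochondrion as carnitine esters. There each turn of β-oxidation removes an acetyl-CoA through dehydrogenation, hydration, a second dehydrogenation and thiolysis, and the electrons pass through the flavoproteins to the respiratory chain and through NADH to complex I. Very long and branched chains are shortened in peroxisomes. In heart, muscle and liver many of these genes are under the control of the nuclear receptor PPARα and its coactivator PGC-1α, and their expression rises after birth, when milk fat becomes the main fuel.

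Of the 31 genes, 29 had an entry in the table, while Cd36 and Eci2 were not analysed here. Expression of 28 genes was above the filter of 1 CPM in at least 2 libraries, and Ppara was below it. All 28 were above 1 CPM in every library, so none passed the filter through 1 age alone. Values below are CPM after TMM normalization, which are not divided by gene length and are therefore compared between ages and not between genes. Where a gene is called the most abundant of a list, or leads it, the highest CPM is meant, which depends on gene length too. Differences are log2 fold changes of neonates over adults from edgeR's quasi-likelihood test, with p-values adjusted by Benjamini-Hochberg over the 13838 genes tested.

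Before the results, 3 features of the libraries need stating. Glomus cell markers were high at both ages, and Th, the rate-limiting enzyme of catecholamine synthesis, was at 1020 and 837.4 CPM in neonates and 1407 and 1136 CPM in adults. Neonate replicate 1 held transcripts of parathyroid tissue, with Pth (parathyroid hormone) at 1774 CPM, against 208.4 CPM in the other neonate library and 0 counts in adults, and Gcm2, the parathyroid transcription factor, at 22.2, 3.04, 0 and 0 CPM. All 3 parathyroid markers tested were higher in neonates, with Chga, which glomus cells also express, the most abundant. The summed level of 7 erythroid genes was 13041 and 7401 CPM in neonates and 2830 and 2469 CPM in adults, with the α-globin gene Hba-a1 the most abundant. The counts of the fatty acid genes, and of the other genes of the pathway as 1 group, are therefore also given without neonate replicate 1. Since neonate replicate 2 held parathyroid transcripts too, this does not separate them from age.

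The fatty acid genes split in direction between the ages. In neonates 13 of 28 genes were higher (46.4%, against 31.2% of all genes tested) and 6 were lower (21.4%, against 31.1% of all genes), at an adjusted p under 0.05 in edgeR. The other 9 did not pass the test. Only Cpt1b and Fabp3 were also past a 2-fold difference, both higher in neonates, where 7.68% of all genes were higher and 13.2% lower by that rule. These counts include Cpt1b (higher) and Echs1 (lower), whose calls rest on reads divided with another entry, as described below. The libraries of the 2 ages did not overlap for 22 of the 28 genes, against 83% of all genes. The median log2 fold change of the 28 genes was 0.027, beside -0.0029 for all genes tested, whose middle 50% lay between -0.54 and 0.45. Without neonate replicate 1, 12 genes were higher and 6 lower, with a median of 0.054. Without neonate replicate 2, 13 were higher and 3 lower, with a median of 0.096. With library size alone as the scale, 8 were higher and 12 lower, with a median of -0.22. In RNA of a whole organ, fewer cells of a type and less RNA per cell cannot be told apart.

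**Figure D1:**
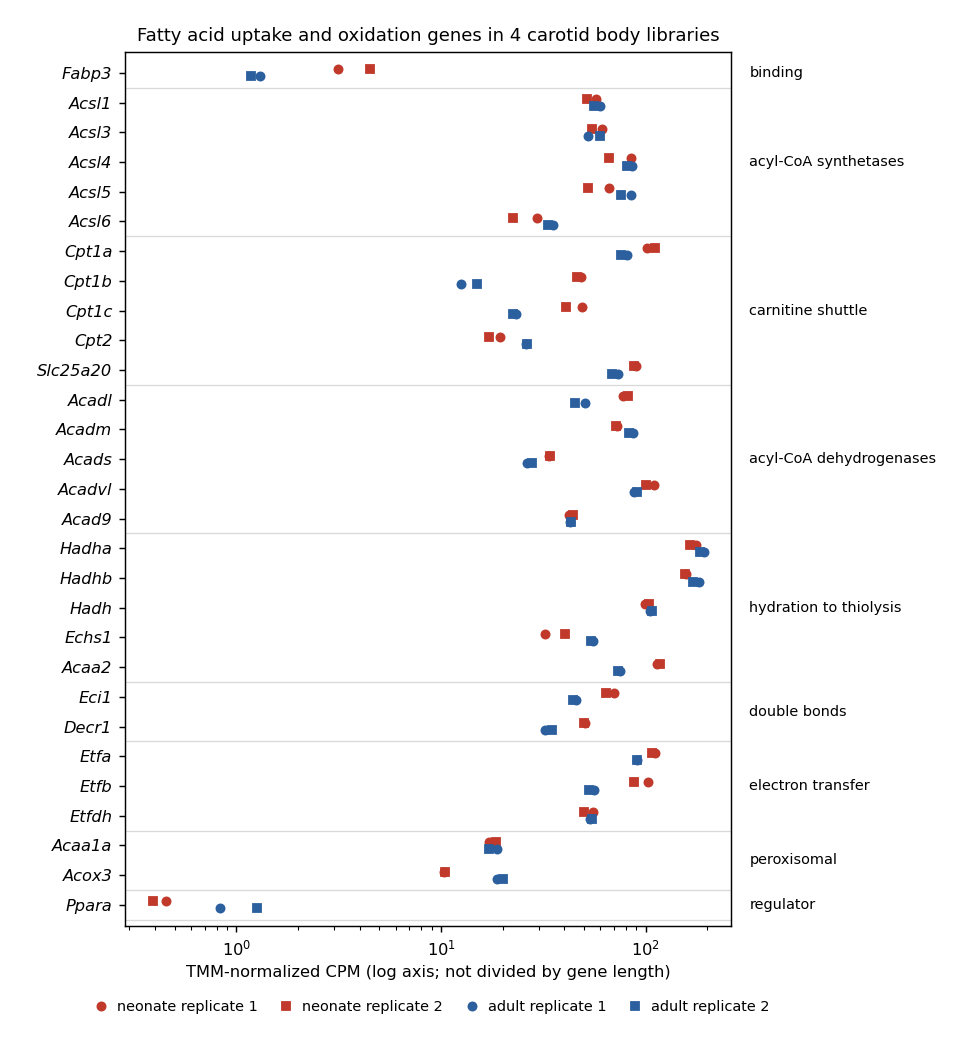
Expression of the 29 fatty acid genes with an entry, as TMM-normalized CPM on a log axis (neonate libraries red, adult libraries blue; circles replicate 1, squares replicate 2), grouped by role. Red and blue points are furthest apart for Cpt1b and Fabp3, and Hadha is at 165.0 to 191.4 CPM in the 4 libraries.

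**Figure D2:**
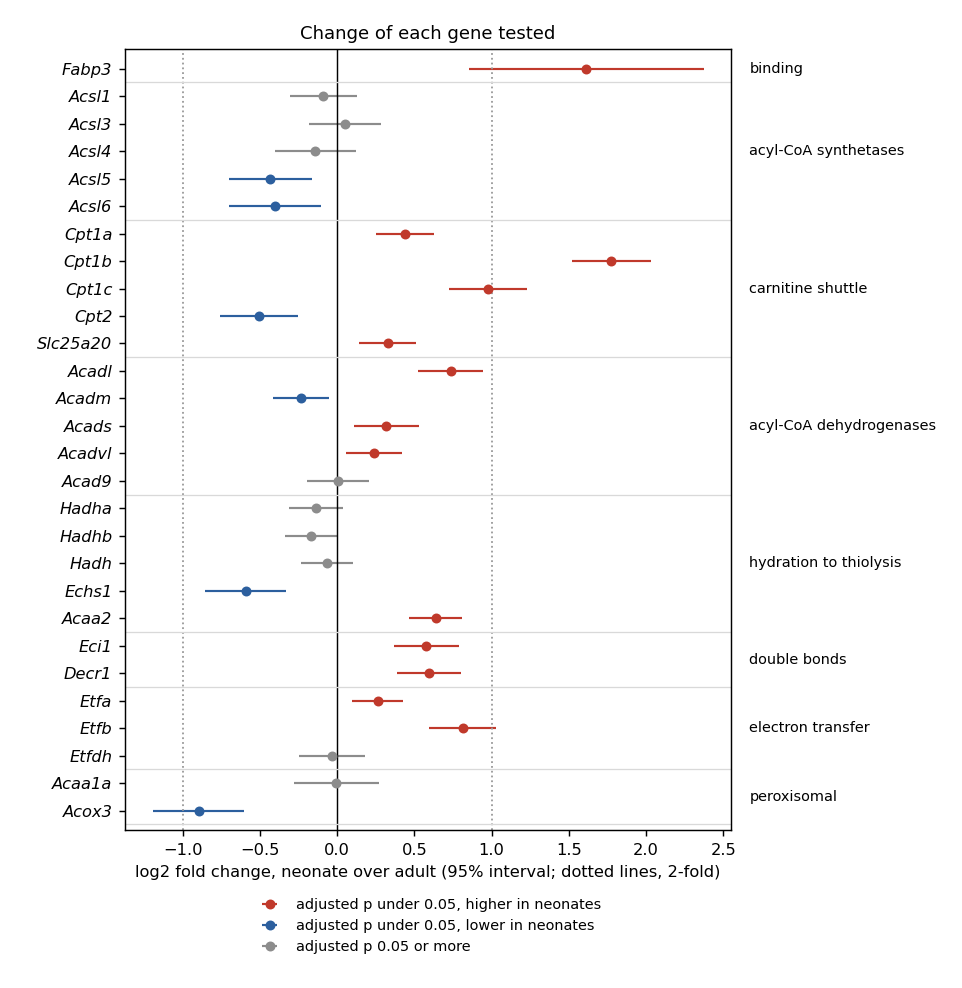
Log2 fold change of neonates over adults for the 28 genes tested, with 95% intervals and colours for the adjusted p. Of the 28 points, 13 are red (higher in neonates), 6 blue (lower) and 9 grey, and 2 lie beyond the dotted 2-fold lines.

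Among the uptake genes, Fabp3, the binding protein of heart and muscle that carries fatty acids through the cytosol, was at 3.13 and 4.48 CPM in neonates and at 1.30 and 1.18 CPM in adults. Both neonate libraries lay above both adult libraries, and Fabp3 was 3.06-fold higher in neonates (log2 fold change 1.61, SE 0.34, adjusted p = 0.0028, edgeR). It was a low transcript, with 111 and 161 counts in neonates and 53 and 47 in adults. The summed level of 7 heart muscle markers was 8.87 and 9.69 CPM in neonates and 3.41 and 3.53 CPM in adults. The most abundant of them, Tnnt2 (cardiac troponin T), was at 5.80 and 6.96 CPM in neonates and 2.31 and 2.22 CPM in adults. Of these markers 2 of 2 tested rose in neonates, while Myh6, a myosin heavy chain of heart muscle, was near 0 (0.141, 0.111, 0 and 0.126 CPM). The 5 not tested, Myh6 among them, were each at most 0.306 CPM in any library, so the sum is mostly that of the 2 tested. Skeletal muscle markers summed to less in neonates, at 33.4 and 37.6 CPM against 51.6 and 57.3 CPM in adults, with 1 of 6 tested called higher and 1 lower. The part of muscle RNA in the Fabp3 difference was not tested.

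The long-chain acyl-CoA synthetases, which activate fatty acids by joining them to coenzyme A, gave no higher call in neonates. Of the 5, 2 were lower and 3 did not pass the test. Acsl5, found on mitochondria and the endoplasmic reticulum, was at 66.2 and 52.4 CPM in neonates and 84.3 and 75.7 CPM in adults. The neonate values were the lower ones without overlap, and the log2 fold change was -0.43 (SE 0.12, adjusted p = 0.011, edgeR). Acsl6, which favours polyunsaturated fatty acids and is abundant in brain, was at 29.4 and 22.3 CPM in neonates and 35.1 and 33.2 CPM in adults, again without overlap (log2 fold change -0.40, SE 0.13, adjusted p = 0.024, edgeR). The neonate libraries differed from each other more than the adult ones in both genes. Neither gene was called without neonate replicate 2, with log2 fold changes of -0.26 and -0.20, and Acsl6 was not called without adult replicate 1 either.

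The other synthetases overlapped between the ages. Acsl1, the main synthetase of heart, fat and liver, was at 57.0 and 51.6 CPM in neonates and 59.7 and 55.9 CPM in adults. Its log2 fold change was -0.09 with a 95% interval from -0.31 to 0.13. Acsl3, a synthetase of lipid droplets, was at 60.9 and 54.9 CPM in neonates and 52.3 and 59.6 CPM in adults (log2 fold change 0.05, interval -0.18 to 0.28). Acsl4, which prefers arachidonic acid, was at 84.8 and 66.3 CPM in neonates and 85.8 and 81.2 CPM in adults (log2 fold change -0.14, interval -0.41 to 0.12). Without neonate replicate 1 it was called lower in neonates (log2 fold change -0.32, adjusted p = 0.021, edgeR), and without neonate replicate 2 its log2 fold change was 0.040. The intervals of all 3 lie inside a 2-fold difference in either direction.

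The carnitine shuttle moves long-chain acyl groups across the mitochondrial membranes, and all 5 of its genes were called in the counts as deposited. Cpt1a and Cpt1c, isoforms of carnitine palmitoyltransferase 1, which makes the carnitine ester, and the carrier Slc25a20 rose in neonates, while Cpt2, which turns the ester back into acyl-CoA inside the mitochondrion, fell. The third isoform, Cpt1b, was called higher from reads divided with a neighbouring gene. Cpt1a, the liver isoform that is also found in most tissues, was at 101.8 and 110.5 CPM in neonates and 81.0 and 75.8 CPM in adults. It was 1.35-fold higher (log2 fold change 0.44, SE 0.083, adjusted p = 0.0017, edgeR). The call of Cpt1a was lost with library size alone (log2 fold change 0.19, adjusted p = 0.093, edgeR). Cpt1c, a brain isoform of the endoplasmic reticulum with little transferase activity, was at 48.9 and 40.8 CPM in neonates and 23.2 and 22.4 CPM in adults. It was 1.97-fold higher (log2 fold change 0.98, SE 0.11, adjusted p = 9.3e-05, edgeR).

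Cpt1b, the muscle and heart isoform, had the largest difference of the 28 genes in the counts as deposited. It was at 48.0 and 45.9 CPM in neonates and at 12.5 and 14.9 CPM in adults, a 3.42-fold difference (log2 fold change 1.78, SE 0.11, adjusted p = 5.8e-06, edgeR). This value rests on reads shared with a neighbour. The estimated counts of Cpt1b were fractional, and with those of Chkb (choline kinase beta), the gene that lies next to it on the same strand in RefSeq (GRCr8), they added up to 4938 and 4766 whole counts in neonates and 2297 and 2494 in adults. The sums were whole within 0.0051 counts. Cpt1b took 34.5 and 34.6% of the shared total in neonates and 22.2 and 23.8% in adults. Chkb alone was also higher in neonates, with a log2 fold change of 0.95 (SE 0.089, adjusted p = 3.5e-05, edgeR). With the entries summed, so that no read is divided between them, the difference was 2.28-fold (log2 fold change 1.19, SE 0.085, adjusted p = 9.8e-06, edgeR). Since Chkb took most of these reads and was higher in neonates as well, the summed value does not give the direction of Cpt1b itself, which rests on how the reads were divided. Skeletal muscle markers did not move the same way as each other, since of 6 tested Tnnc2 (fast troponin C) rose, at 4.48 and 4.18 CPM in neonates and 0.908 and 1.92 CPM in adults, and Myh3 (embryonic myosin), the most abundant, fell, at 11.1 and 8.05 against 33.3 and 31.6 CPM. The summed level of the 12 muscle markers with an entry was 33.4 and 37.6 CPM in neonates and 51.6 and 57.3 CPM in adults, and Myh8 was at 0 counts.

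**Figure D3:**
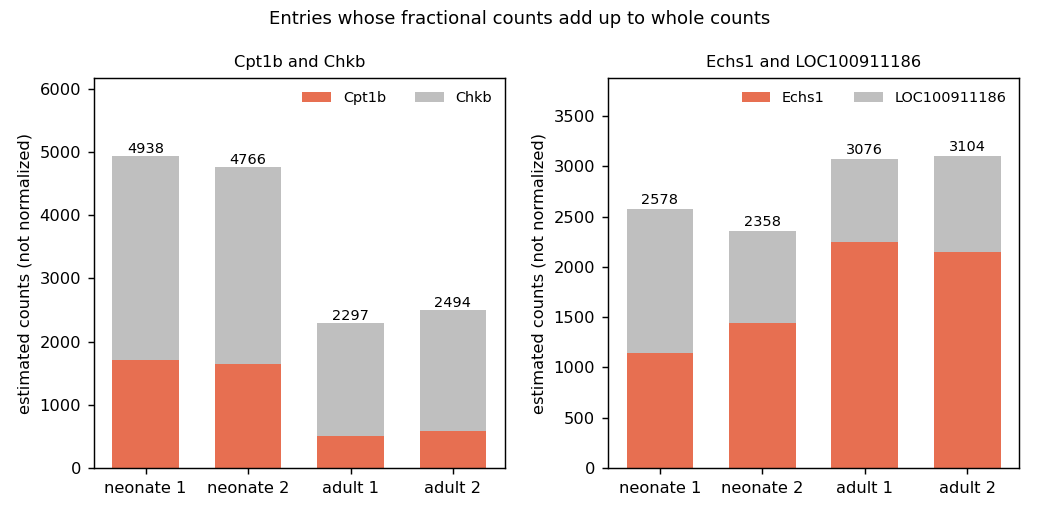
Estimated counts (not normalized) of Cpt1b stacked with Chkb, and of Echs1 stacked with LOC100911186, in each of the 4 libraries, with the whole-number sum above each bar. The stacked total with Chkb is higher in neonates (4938 and 4766) than in adults (2297 and 2494), while Echs1 takes 44.4 and 61.4% of its pair in neonates and 73.2 and 69.2% in adults.

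Slc25a20, the carnitine-acylcarnitine translocase of the inner membrane, was at 89.4 and 87.7 CPM in neonates and 73.1 and 68.2 CPM in adults (log2 fold change 0.33, SE 0.082, adjusted p = 0.0071, edgeR). It was not called without adult replicate 2, nor with library size alone (log2 fold change 0.082). Cpt2 was at 19.5 and 17.2 CPM in neonates and 25.8 and 26.2 CPM in adults (log2 fold change -0.51, SE 0.11, adjusted p = 0.0037, edgeR). Transcripts of Cpt1a, at the step into the shuttle, and of Cpt2, at the step out of it, thus differed in opposite directions. The call of Cpt1a was lost with library size alone, and the direction of Cpt1b rests on divided reads. The ratio of counts between the 3 Cpt1 genes together and Cpt2 was 10.2 and 11.5 in neonates and 4.51 and 4.32 in adults, a difference of 1.29 on the log2 scale. Gene length sets the level of such a ratio but cancels in its change. The ratio of Cpt1a to Cpt2, which does not use the reads shared by Cpt1b, was 5.23 and 6.44 in neonates and 3.13 and 2.90 in adults (difference 0.95, log2 scale), and that of Slc25a20 to Cpt2 was 4.59 and 5.12 against 2.83 and 2.60 (difference 0.84). Neonate and adult ratios did not overlap in any of these pairs, with an exact two-sided permutation p of 0.33, the smallest that 2 against 2 libraries can give. In all, 8 such ratios were computed, and no p adjusted over them can be smaller.

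The shares of the Cpt1 family rest in part on how the reads of Cpt1b and Chkb were divided, and with 2 against 2 libraries no exact p for a share can be below 0.33. Cpt1a gave 51.2 and 56.0% of the family's counts in neonates and 69.4 and 67.0% in adults, and Cpt1b gave 24.1 and 23.3% against 10.7 and 13.2%. The share of Cpt1c was 24.6 and 20.7% in neonates and 19.9 and 19.8% in adults, with a narrower gap between the ages. In the synthetases, Acsl5 gave 22.2 and 21.2% of the family's counts in neonates and 26.6 and 24.8% in adults, and Acsl6 gave 9.84 and 9.02% against 11.1 and 10.9%. Acsl3 gave more in neonates, 20.4 and 22.2% against 16.5 and 19.5%, as did Acsl1, 19.1 and 20.9% against 18.8 and 18.3%, and the share of Acsl4 was between 26.6 and 28.4% in all 4 libraries.

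**Figure D4:**
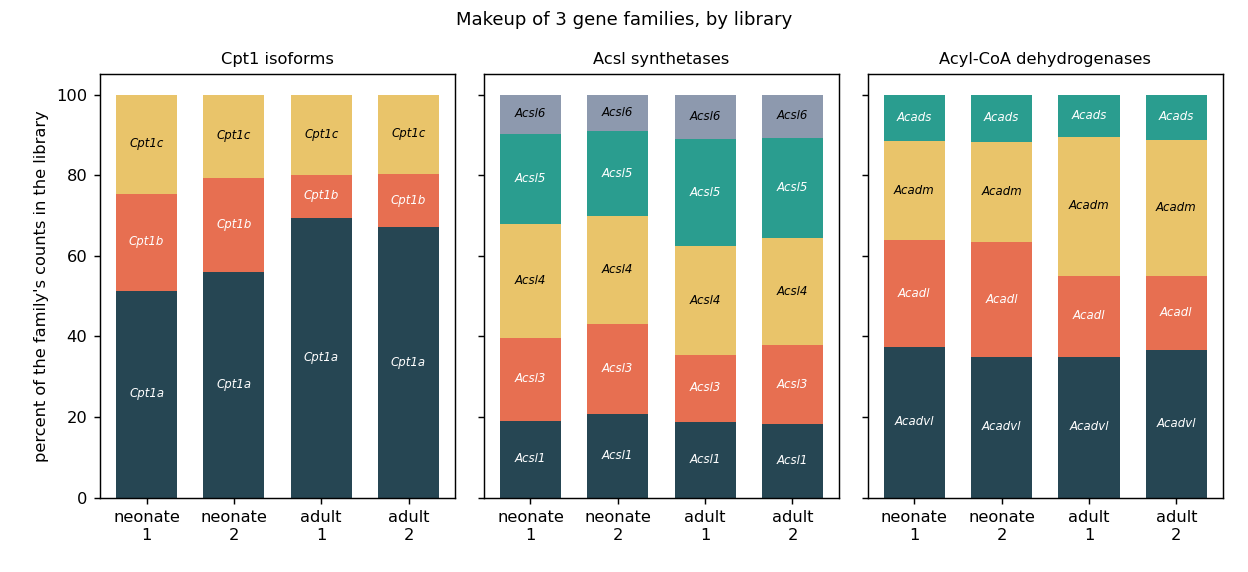
Percent of the family's counts taken by each gene of the Cpt1, Acsl and acyl-CoA dehydrogenase (Acadvl, Acadl, Acadm, Acads) families, with 1 stacked bar per library; heights depend on gene length and are read between libraries. Cpt1b shrinks from 24.1 and 23.3% in neonates to 10.7 and 13.2% in adults, a share that depends on the division of reads between Cpt1b and Chkb, and Acadl shrinks from 26.4 and 28.5% to 20.0 and 18.4%.

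The acyl-CoA dehydrogenases catalyse the first step of each turn and differ in the chain length they accept. Of the 5 genes, 3 were higher in neonates, 1 lower, and Acad9 did not pass the test. Acadl, the long-chain enzyme, was at 77.0 and 82.1 CPM in neonates and 50.2 and 45.3 CPM in adults, 1.66-fold higher (log2 fold change 0.74, SE 0.093, adjusted p = 0.00017, edgeR). Acads, the short-chain enzyme, was at 33.5 and 33.9 CPM in neonates and 26.4 and 27.7 CPM in adults (log2 fold change 0.32, SE 0.093, adjusted p = 0.015, edgeR). Acadvl, the very-long-chain enzyme of the inner membrane, was at 109.4 and 100.5 CPM in neonates and 87.6 and 90.4 CPM in adults (log2 fold change 0.24, SE 0.080, adjusted p = 0.028, edgeR). Acadm, the medium-chain enzyme, went the other way, at 72.3 and 71.7 CPM in neonates and 86.5 and 82.9 CPM in adults (log2 fold change -0.23, SE 0.079, adjusted p = 0.029, edgeR). The call of Acadm was lost whenever 1 library of either age was left out (log2 fold change -0.29 to -0.21), and those of Acads and Acadvl were lost without either adult library, that of Acadvl also without neonate replicate 1 and with no filter on low counts (0.21, adjusted p = 0.068, edgeR). With library size alone Acads was at 0.073 and Acadvl at -0.0090, and neither was called.

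The long-chain and medium-chain dehydrogenases were thus the clearest contrast of the family. The ratio of Acadl to Acadm counts was 1.07 and 1.14 in neonates and 0.581 and 0.547 in adults (difference 0.97, log2 scale). Acad9, which serves mainly in the assembly of complex I, was at 42.1 and 44.1 CPM in neonates and 42.7 and 43.3 CPM in adults. Its log2 fold change had an interval from -0.20 to 0.21.

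The trifunctional protein catalyses the remaining steps for long chains, with its α subunit encoded by Hadha (hydratase and dehydrogenase) and its β subunit by Hadhb (thiolase). Hadha was at 176.7 and 165.0 CPM in neonates and 191.4 and 184.1 CPM in adults (log2 fold change -0.14, SE 0.077, adjusted p = 0.15, edgeR). Hadhb was at 156.3 and 155.8 CPM in neonates and 181.0 and 170.2 CPM in adults (log2 fold change -0.17, SE 0.075, adjusted p = 0.074, edgeR). Neither passed the test, although the neonate libraries lay below the adult ones in both genes. Hadhb was called lower without adult replicate 2 (log2 fold change -0.24, adjusted p = 0.045, edgeR) and with a filter at a mean of 5 CPM (-0.21, adjusted p = 0.030). The ratio of Hadhb to Hadha was 0.884 and 0.944 in neonates and 0.945 and 0.924 in adults, with overlap between the ages (difference -0.03, log2 scale). In the rat assembly GRCr8 (RefSeq) the genes start head to head 300 bases apart, at chr6:31907501-31907800. The bases between the starts are shown because the subunits of 1 enzyme share them as their upstream region, on the + strand, which is that of Hadha, with the 200 bases that lie within 250 bases upstream of both starts in capitals. They hold 57% G and C and 14 CpG.
Hadha and Hadhb: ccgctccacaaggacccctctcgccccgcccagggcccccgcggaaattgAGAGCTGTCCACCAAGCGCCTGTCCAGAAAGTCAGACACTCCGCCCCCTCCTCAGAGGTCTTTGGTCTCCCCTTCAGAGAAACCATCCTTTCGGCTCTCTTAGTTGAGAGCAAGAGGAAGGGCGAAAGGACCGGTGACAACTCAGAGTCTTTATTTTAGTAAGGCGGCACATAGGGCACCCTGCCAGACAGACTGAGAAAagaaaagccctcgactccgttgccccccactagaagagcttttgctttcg

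For shorter chains, soluble matrix enzymes take over, and their genes differed in direction. Hadh, the 3-hydroxyacyl-CoA dehydrogenase of medium and short chains, was at 99.6 and 104.0 CPM in neonates and 105.4 and 107.7 CPM in adults (log2 fold change -0.07, interval -0.23 to 0.10). Acaa2, the matrix thiolase, was at 113.1 and 117.1 CPM in neonates and 74.4 and 73.4 CPM in adults, 1.56-fold higher (log2 fold change 0.64, SE 0.076, adjusted p = 0.00012, edgeR). The ratio of Acaa2 to Hadha counts was accordingly 0.640 and 0.710 in neonates and 0.389 and 0.399 in adults (difference 0.78, log2 scale).

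Echs1, the short-chain enoyl-CoA hydratase, was at 32.2 and 40.3 CPM in neonates and 55.3 and 54.2 CPM in adults (log2 fold change -0.59, SE 0.12, adjusted p = 0.0020, edgeR). This call rests on how reads were divided. The fractional counts of Echs1 and of the entry LOC100911186 added up to whole numbers, 2578 and 2358 in neonates and 3076 and 3104 in adults. Echs1 took 44.4 and 61.4% of them in neonates and 73.2 and 69.2% in adults, and LOC100911186 alone had a log2 fold change of 0.57 (SE 0.19, adjusted p = 0.029, edgeR). With the entries summed the difference was -0.15 on the log2 scale (SE 0.088, adjusted p = 0.16, edgeR), and since LOC100911186 is part of that sum, the direction of Echs1 itself rests on how the reads were divided.

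The auxiliary enzymes that move or reduce double bonds, so that unsaturated fatty acids can enter the cycle, were both higher in neonates. Eci1, the enoyl-CoA isomerase of mitochondria, was at 70.1 and 63.9 CPM in neonates and 45.5 and 44.3 CPM in adults (log2 fold change 0.58, SE 0.092, adjusted p = 0.00065, edgeR). Decr1, the 2,4-dienoyl-CoA reductase, was at 50.6 and 50.1 CPM in neonates and 32.0 and 34.8 CPM in adults (log2 fold change 0.59, SE 0.092, adjusted p = 0.00054, edgeR). The ages were separated without overlap in both genes, at 1.49-fold and 1.51-fold.

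The electron-transferring flavoprotein, a dimer of the Etfa and Etfb products, takes electrons from the acyl-CoA dehydrogenases and hands them to its ubiquinone oxidoreductase, encoded by Etfdh. Etfb was at 102.0 and 88.0 CPM in neonates and 55.7 and 52.5 CPM in adults, 1.76-fold higher (log2 fold change 0.81, SE 0.097, adjusted p = 0.00012, edgeR). Etfa was at 110.7 and 107.5 CPM in neonates and 91.0 and 91.0 CPM in adults (log2 fold change 0.26, SE 0.074, adjusted p = 0.013, edgeR). The call of Etfa was lost without either adult library and with library size alone (log2 fold change 0.015). Etfdh overlapped between the ages, at 55.2 and 49.9 CPM in neonates and 53.1 and 54.5 CPM in adults (log2 fold change -0.04, interval -0.25 to 0.18). In these 4 libraries the counts of the dimer's subunits differed between the ages by unequal amounts. The ratio of Etfb to Etfa counts was 0.922 and 0.819 in neonates and 0.612 and 0.577 in adults (difference 0.55, log2 scale), and that of Etfa to Etfdh was 2.01 and 2.15 against 1.71 and 1.67 (difference 0.30). The exact two-sided permutation p was 0.33 for each of these ratios, the smallest possible.

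In the peroxisome, Acox3, the oxidase of branched-chain acyl-CoA, fell in neonates. It was at 10.4 and 10.4 CPM in neonates and 18.8 and 20.0 CPM in adults, 1.86-fold higher in adults (log2 fold change -0.90, SE 0.13, adjusted p = 0.00038, edgeR). This was the largest difference of the 28 genes in that direction. Acaa1a, the peroxisomal thiolase, was at 17.2 and 18.5 CPM in neonates and 18.7 and 17.1 CPM in adults, with overlap between the ages (log2 fold change -0.01, interval -0.28 to 0.27). Acaa1a has a near-identical copy in the rat, although its counts here were whole numbers.

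Ppara was near the detection filter. Its counts were 16 and 14 in neonates and 34 and 50 in adults, or 0.451, 0.390, 0.835 and 1.26 CPM, and the ages did not overlap. With no filter on low counts the log2 fold change was -1.34 (SE 0.56, adjusted p = 0.083, edgeR), which did not pass the threshold. PPARα binds as a heterodimer with the retinoid X receptor to DR1 elements, which are repeats of AGGTCA separated by 1 base. Promoters of 300 bases (250 before to 50 after the start, RefSeq, GRCr8) were matched by symbol for 26 of the 31 genes, and those of Cpt1b, Cpt1c, Acadl, Decr1 and Acaa2 were not found. On either strand, the half-site AGGTCA was present in 5 of 26 (19.2%), against 15.7% of 27457 promoters. The extended half-site TNAAGGTCA of the estrogen-related receptors, which contains the half-site, was in 0 of 26, against 1.15% of all. No promoter of the 26 held the exact repeat (0.0583% of all), and 4 held it with up to 2 mismatches (15.4%, against 3.71% of all). Such a match overlaps the half-site wherever 1 of its repeats is exact, as in Acadvl. The 4 matches are shown 5′ to 3′ with 6 bases on each side, on the strand of the gene, with the match in capitals. The matches begin at base 16 of the transcript of Slc25a20 (chr8:118243582-118243606, + strand) and 17, 155 and 154 bases before the starts of Acadvl (chr10:55236704-55236728, - strand), Echs1 (chr1:204333643-204333667, - strand) and Etfa (chr8:64788101-64788125, - strand). Those of Echs1 and Etfa read as the repeat on the opposite strand.
Slc25a20: taatgtAGGTGAAAGGTCGgtgtag
Acadvl: gagaagAGGTCAGTGGTCAaggctt
Echs1: gctaaaAGACCTCTGATCTgatctt
Etfa: acacccTTACCTTTGCCCTactccc
Slc25a20, Acadvl and Etfa rose in neonates, and Echs1 was called lower from divided reads. A match of letters is a description and not a binding site.

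Genes around the pathway were taken from lists by role, 115 genes in all, of which 90 were tested. Of these, 26 were higher in neonates (28.9%), 25 lower (27.8%) and 39 did not pass, with a median log2 fold change of 0.0087. These shares are near those of all genes tested (31.2 and 31.1%). Without neonate replicate 1, 21 were higher and 23 lower, and with library size alone 14 were higher and 35 lower. In the 12 other uptake and transport genes tested, 6 rose (50%, against 31.2% of all genes) and 1 fell (8.33%, against 31.1%). Fabp5, the epidermal fatty acid binding protein, was at 194.6 and 184.8 CPM in neonates and 41.7 and 47.8 CPM in adults (log2 fold change 2.08, SE 0.090, adjusted p = 1.4e-06, edgeR). Dbi, the acyl-CoA binding protein, was at 378.0 and 385.9 CPM in neonates and 142.3 and 145.3 CPM in adults (log2 fold change 1.41). Fabp7, the binding protein of glia, was low, at 2.08 and 1.89 against 0.0982 and 0.454 CPM (log2 fold change 2.84), and Gpihbp1, the endothelial anchor of lipoprotein lipase, had a log2 fold change of 0.81. Lpl, the lipase itself, fell, at 42.1 and 68.1 CPM in neonates and 77.9 and 86.2 CPM in adults (log2 fold change -0.57, adjusted p = 0.023, edgeR). Fabp1, Fabp6 and Fabp12 had 0 counts.

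Of 24 other mitochondrial acyl-CoA genes tested, 5 rose and 5 fell (20.8% each, against 31.2 and 31.1% of all genes). Their median was -0.076. Ivd, the isovaleryl-CoA dehydrogenase of leucine breakdown, was at 116.4 and 106.5 CPM in neonates and 262.4 and 245.3 CPM in adults (log2 fold change -1.19, SE 0.083, adjusted p = 8.8e-06, edgeR). Acadsb, the short and branched-chain dehydrogenase, was at 11.6 and 12.2 against 30.3 and 44.7 CPM (log2 fold change -1.66, SE 0.17, adjusted p = 6e-05, edgeR). Pcca, the α subunit of propionyl-CoA carboxylase, fell by 0.82 on the log2 scale, while Pccb, its β subunit, rose by 0.32. Hsd17b8, a subunit of the mitochondrial fatty acid synthesis reductase, rose by 0.83, and its counts were fractional. Of 18 further peroxisomal genes tested, 6 rose (33.3%) and 4 fell (22.2%), against 31.2 and 31.1% of all genes. Those that rose include Abcd4 (log2 fold change 0.69), Eci3 (0.61, with fractional counts) and Cat, the catalase (0.59). Those that fell include Hacl1 (-0.82), the lyase of branched-chain α-oxidation, and Ehhadh (-0.72), the peroxisomal bifunctional enzyme.

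Among the ketone body genes, Oxct1, which lets tissues use ketone bodies, was at 196.5 and 199.1 CPM in neonates and 325.3 and 301.3 CPM in adults (log2 fold change -0.66, SE 0.081, adjusted p = 0.00013, edgeR).

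Among 18 regulators tested, 4 rose (22.2%, against 31.2% of all genes) and 9 fell (50%, against 31.1%), with a median of -0.28. Ppargc1a, the gene of PGC-1α, was at 0.592 and 0.557 CPM in neonates and 1.40 and 1.81 CPM in adults (log2 fold change -1.48, SE 0.40, adjusted p = 0.011, edgeR). Rxra, 1 of the retinoid X receptors with which PPARα can pair, was at 4.73 and 4.73 against 10.2 and 13.5 CPM (log2 fold change -1.32, adjusted p = 0.00068, edgeR). Med1 (-1.37), a mediator subunit that binds nuclear receptors, and Lpin1 (-1.27), a coactivator of PGC-1α and a phosphatidate phosphatase, fell as well. The other retinoid X receptors went the other way from Rxra. Rxrb, whose counts were fractional, was at 119.0 and 110.1 CPM in neonates and 89.3 and 94.1 CPM in adults (log2 fold change 0.32, adjusted p = 0.0068, edgeR). Rxrg, a retinoid X receptor of muscle and brain, rose by 0.81, and the mitochondrial transcription factor Tfam rose by 0.33.

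Of 17 known targets of the PPARs outside the main list, 5 were higher (29.4%) and 6 lower (35.3%), shares near those of all genes (31.2 and 31.1%). Angptl4, an inhibitor of lipoprotein lipase, was at 39.4 and 40.3 CPM in neonates and 7.39 and 8.49 CPM in adults (log2 fold change 2.33, SE 0.12, adjusted p = 2.1e-06, edgeR). Pdk4, the kinase that turns pyruvate dehydrogenase off when fatty acids are used, was at 5.35 and 6.96 CPM in neonates and 23.4 and 25.2 CPM in adults (log2 fold change -1.98, SE 0.16, adjusted p = 1.8e-05, edgeR). The liver targets Cyp4a1, Cyp4a3, Fabp1 and Creb3l3 had 0 counts in every library.

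Of 25 genes of fatty acid synthesis tested, 12 were lower in neonates (48%, against 31.1% of all genes) and 4 higher (16%, against 31.2%), with a median of -0.25. Those higher were Hacd1 (log2 fold change 0.77), Me1 (0.75), Acacb (0.48) and Hacd2 (0.39). Thrsp, a lipogenic protein of liver and fat, was at 0.254 and 0.585 CPM in neonates and 7.58 and 10.8 CPM in adults (log2 fold change -4.44, SE 0.40, adjusted p = 2.9e-05, edgeR). Scd, a stearoyl-CoA desaturase whose counts were fractional, was at 12.4 and 14.9 against 75.8 and 70.3 CPM (log2 fold change -2.42). Fads2, the Δ6 desaturase, fell by 1.42 on the log2 scale. Of 15 genes of triglyceride storage and lipolysis tested, 8 fell (53.3%, against 31.1% of all genes) and 3 rose (20%, against 31.2%). Their median was -0.38. Plin1, the perilipin of fat cells, was at 1.94 and 3.62 CPM in neonates and 9.23 and 18.2 CPM in adults (log2 fold change -2.30). Several fat cell markers were lower in neonates as well, but Plin1 and Cidec, among those that fell, are also on the triglyceride list. Adipoq (adiponectin) was at 2.39 and 1.98 CPM in neonates and 11.7 and 13.2 CPM in adults, and Retn (resistin) at 0.535 and 0.278 against 3.80 and 5.95 CPM. Of 7 fat cell markers tested, 4 fell, 1 rose and the others were not called. The marker that rose, Fabp4, was the most abundant, at 133.6 and 178.5 against 94.1 and 125.4 CPM, and with it the summed level of the 8 markers with an entry was 191.4, 243.1, 173.1 and 224.1 CPM in neonate replicates 1 and 2 and adult replicates 1 and 2. The part of fat tissue in the differences was not tested.

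**Figure D5:**
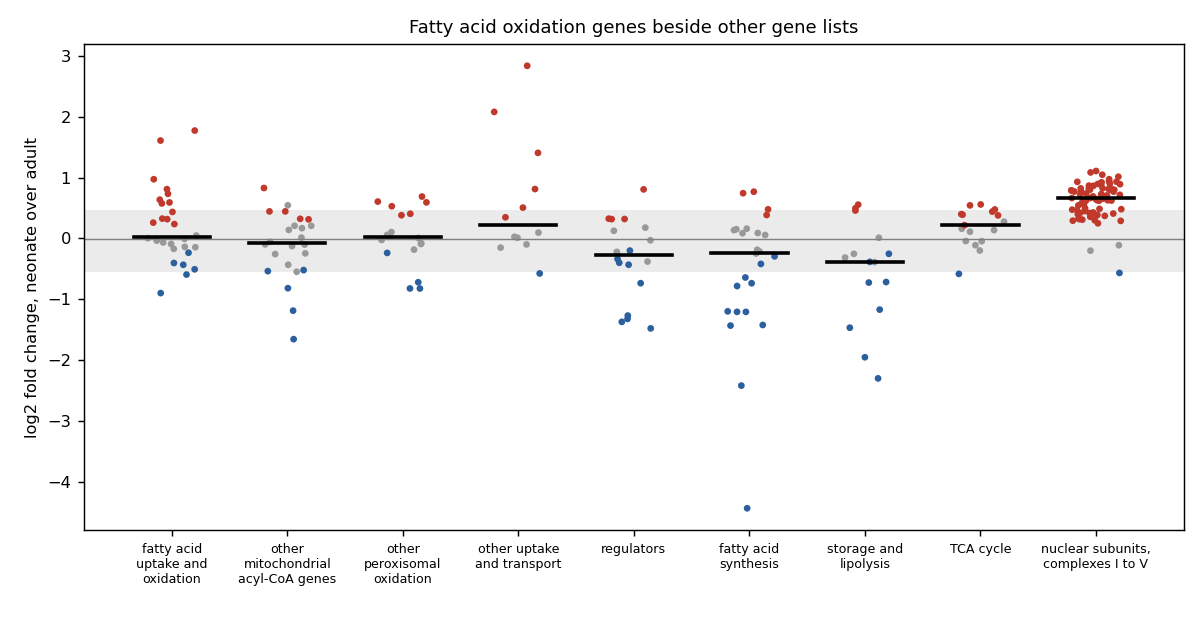
Log2 fold change of neonates over adults for each gene tested in the fatty acid uptake and oxidation genes and 8 other lists (red higher and blue lower at an adjusted p under 0.05, grey not called; bars are medians; the grey band is the middle 50% of all genes). The fatty acid genes have a median of 0.027 inside the band, and the nuclear subunits of complexes I to V have a median of 0.67 above it.

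Fatty acid genes were set beside the mitochondrial genes into which their products feed. Of 17 TCA cycle genes tested, 8 rose in neonates (47.1%, against 31.2% of all genes) and 1 fell (5.88%, against 31.1%). Those that rose include Idh3g (log2 fold change 0.56), Sdhb (0.55), Idh2 (0.48) and Fh (0.44). Cs, citrate synthase, fell by 0.58, and the median was 0.22. Of 76 nuclear-encoded subunits and factors of complexes I to V, which include the Sdh genes, 72 rose (94.7%) and 1 fell (1.32%). Ndufs1 of complex I was the 1 that fell, by 0.57, and the median was 0.67. The largest differences were those of Cox5a of complex IV (1.11) and Atp5me (1.09), Atp5if1 (1.05) and Atp5mf (1.02) of complex V. The corresponding counts were 13 higher and 6 lower of 28 fatty acid genes, with a median of 0.027. The mean of log2 expression per library differed between the ages by 0.19 for the fatty acid genes, 0.18 for the TCA cycle and 0.62 for complexes I to V. These counts and medians describe the lists, and the difference between lists was not tested.

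The summed level of the fatty acid genes depended on the scaling. After TMM normalization it was 1938 and 1857 CPM in neonates and 1751 and 1709 CPM in adults, higher in neonates. As a share of all deposited counts it was 0.174 and 0.173% in neonates and 0.189 and 0.187% in adults, lower in neonates. With library size alone as the scale the median of all genes moved to -0.25, and 8 of the fatty acid genes were higher and 12 lower. Of all genes called, 50.2% were higher in neonates with TMM and 30.1% with library size alone. Cpt1b, Cpt1c, Fabp3, Etfb, Acadl, Acaa2, Decr1 and Eci1 were called higher, and Cpt2, Acox3, Acadm, Acsl5, Acsl6 and Echs1 lower, on either scale.

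Markers of other cell types that could carry these genes are given beside them. For comparison, 31.2% of all genes tested were higher in neonates and 31.1% lower. Endothelial markers summed to 1190 and 1190 CPM in neonates and 1172 and 1176 CPM in adults, with Cdh5 (VE-cadherin) the most abundant, 2 of 7 higher and 2 lower, among them Flt1 at a log2 fold change of -0.48. Macrophage markers summed to 95.2 and 106.6 against 156.2 and 150.0 CPM, with 6 of 8 lower in neonates, among them Csf1r, the most abundant (-1.24), and Cd163 (-1.44). Smooth muscle markers summed to 617.0 and 646.8 against 743.0 and 869.2 CPM, led by Acta2, with 3 of 5 lower, Des the most (-1.05). Fibroblast markers summed to 12972 and 15504 against 16682 and 18470 CPM, led by Col3a1, with 3 of 5 lower, Dcn the most (-1.40). The cell cycle list was higher in neonates for 8 of 8 genes, summing to 597.6 and 511.9 against 124.2 and 126.4 CPM, with Mki67 the most abundant and Birc5 the most changed (2.65). The erythroid list was higher for 7 of 7, Ahsp the most (3.09). Glial markers summed to 1051 and 1921 against 1608 and 1726 CPM, with 3 of 7 higher and 2 lower. Glomus cell markers summed to 8010 and 6771 against 9143 and 7195 CPM, led by Epas1, with 4 of 10 higher and 3 lower. Brown fat markers summed to 4.62 and 4.51 against 2.99 and 8.24 CPM, with neither of 2 tested called, and Ucp1, the uncoupling protein that defines these cells, was at 1.83, 2.0, 0.761 and 4.03 CPM. Liver markers summed to 1.31 to 3.01 CPM, with Apoa1 higher in neonates (1.72). The part of each cell type in the differences of the fatty acid genes was not tested.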

How the data were processed

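Estimated counts of each gene, as the authors deposited them, came from poly A+ RNA by trimming, STAR alignment and Salmon 1.5.2 on Rnor_6.0, without normalization or filtering. The strand setting of the quantification and whether the libraries are stranded are not given in the sources used here. Between 5.02 and 6.19% of genes per library had fractional counts, which arise where reads are divided between entries. Here counts were rounded, 642 entries annotated as other than protein-coding in RefSeq (GRCr8) were removed by symbol, and 13838 genes that reached 1 CPM in 2 or more libraries were tested. Ages were compared with edgeR 4.0.16 (TMM, quasi-likelihood, no covariates) in R 4.3.3, with Benjamini-Hochberg adjustment. Alternatives used DESeq2 1.42.0 and limma 3.58.1, and 1, the summing of entries that share reads, was chosen after seeing the data. Ratios were tested by exact permutation in Python 3.11.15 with scipy 1.17.1.

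On simulated data of 13618 genes for this comparison, 48 of 65 genes changed by 0.7 on the log2 scale were called with the right sign. So were 51 of 67 changed by 1 and 65 of 66 changed by 2. Few genes were changed in the simulation, while 31.2% of all genes tested were called higher and 31.1% lower in the data. The adjusted p depends on that share, so the simulated rate of missed calls does not carry over to the data. Libraries are labelled biological replicates, and the study's text gives other pool sizes and another number of replicates than the labels. Replicates differed beyond sampling noise (chi-square per degree of freedom 29.0 in neonates, 13.3 in adults). Members and lists were chosen with earlier results of these data known. All members were named, as were, from each other list, called genes (at most 4 in each direction, by size of log2 fold change), from marker lists the most abundant, the most changed and those at 0 counts. Th, Gcm2, Adipoq, Myh6, Chkb and pathway genes at 0 counts were named beyond this, after their values were seen. Some genes that the rule names are not reported here.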

Additional observations from a re-analysis of the deposited data

How the results depend on the processing

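Calls and directions were recomputed under 14 alternatives. Of the fatty acid genes, Acaa2, Acadl, Acox3, Cpt1c, Cpt2, Decr1, Eci1, Etfb and Fabp3 kept their call and direction in every alternative that tested them (Fabp3 was not tested at a mean of at least 5 CPM). Cpt1b kept its own in all alternatives other than the summing of entries that share reads, which does not test it. The others changed at least once. With library size alone, 8 fatty acid genes were higher and 12 lower, with a median of -0.22, against a median of all genes of -0.25, and 14 other pathway genes were higher and 35 lower. Of all genes called, 30.1% were then higher, against 50.2% with TMM. Cpt1a (0.19), Slc25a20, Acads, Etfa and Acadvl lost their calls there, and Acsl1, Acsl4, Etfdh, Hadh, Hadha and Hadhb became lower. With no filter the median was -0.021, and with a mean of at least 5 CPM it was -0.032, with 1 gene past 2-fold. Leaving out 1 library gave 9 to 13 genes higher and 3 to 6 lower, 2 to 3 past 2-fold, a median of -0.0035 to 0.096, and 18 to 22 other pathway genes higher and 17 to 23 lower. The 3 lower were found without neonate replicate 2. Summing the entries that share reads gave no call for the sum that holds Echs1, and the sum that holds Cpt1b is mostly Chkb. Acadvl was not called with no filter. Hadhb was also called lower at a mean of at least 5 CPM and without adult replicate 2, and Acsl4 without neonate replicate 1.

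Directions that turned were those of genes not called, and of Acadvl (-0.0090 with library size alone). With library size alone Acad9 was at -0.24 and Acsl3 at -0.20. Acaa1a was at 0.00027 with TMM computed without mitochondrially encoded and ribosomal protein genes. Acad9 was at -0.021 without the filter and -0.032 at a mean of at least 5 CPM. With 1 library left out, the range was -0.035 to 0.049 for Acad9, -0.093 to 0.058 for Acaa1a, -0.072 to 0.14 for Acsl3, -0.099 to 0.053 for Etfdh and -0.32 to 0.040 for Acsl4. The causes were not tested.

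The labels number the libraries 1 and 2 at each age, but do not say that a number marks a shared batch, and same-numbered libraries did not deviate together (correlation -0.016). With the replicate number as a block, 13 fatty acid genes were higher and 6 lower, 2 past 2-fold, with a median of 0.027, and 26 other pathway genes were higher and 27 lower, so that no count of the fatty acid genes moved. With 2 libraries per age, differences as small as those of Acadm or Acadvl are at the limit of what these data resolve.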
